A study of Homo sapiens with 6 samples.

Results

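The genes of cholesterol and fatty acid synthesis were examined in HEK293 cells, a line of human embryonic kidney origin, by RNA sequencing of libraries made with an mRNA kit. A list of 30 genes was looked up in the deposited expression table, and all 30 were found among its 30960 genes. They fall into 18 enzymes of sterol synthesis, 6 sterol regulators and 6 genes of fatty acid synthesis and desaturation. The list was matched by symbol alone, and it was drawn up with earlier results of these data known. Cells received a plasmid for a GFP fusion of PKI1-24 (the PKI group) or of inPKI1-24 (inPKI, the control of the study) at 158 ng per square centimetre with Lipofectamine 3000, and RNA was taken after 48 h. There were 3 libraries to a group (A, B and C), and both groups were of the same cell line, reagent, dose and time. The promoter of the plasmids and the share of cells that took them up are not given in the sources used here. No source used here says whether separate cultures were used, so p-values measure only the spread between these libraries, which may be technical.

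Cells make cholesterol from acetyl-CoA through the mevalonate pathway, then squalene, then a series of sterol intermediates, and they make fatty acids from the same acetyl-CoA. Both routes are transcribed under the SREBP factors: SREBP-2, from SREBF2, acts mainly on sterol genes, and SREBP-1, from SREBF1, acts mainly on fatty acid genes. When sterols are plentiful, INSIG proteins hold the escort protein SCAP and its SREBP cargo in the endoplasmic reticulum, and when sterols fall SCAP carries SREBP to the Golgi for cleavage. PKI proteins bind and block the catalytic subunit of protein kinase A, the cAMP-dependent kinase, so the comparison asks whether the RNA of these lipid genes differs where that inhibitor is expressed.

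The libraries held 17244715 to 23589438 reads, with PKI C the shallowest, and 1 read was worth 0.0333 to 0.0437 CPM (counts scaled per library size). PKIA, which encodes a PKI protein, measured 9.05, 11.3 and 8.65 CPM in inPKI A, B and C and 43.2, 42.3 and 46.1 CPM in PKI A, B and C (limma adjusted p = 5.64e-09), so the libraries separate by their labels; the counts do not tell plasmid from cellular transcripts. Of 8 HEK293 markers all were tested, and their summed level was 898 to 921 CPM in inPKI and 797 to 911 CPM in PKI, with VIM, NEFM and NEFL high and PAX2 (1.02 CPM) and LHX1 (3.02 CPM) low. Of 7 fibroblast markers 2 could be tested (summed 18.9 to 21.1 CPM in inPKI and 19.4 to 22.8 CPM in PKI, with COL1A1 at 18.0 CPM and DCN at 0). Of 6 leukocyte markers 1 could be tested (1.68 to 2.54 and 2.23 to 2.55 CPM, with CD3E at 0), of 5 adipocyte markers 0 (0.331 to 0.474 and 0.566 to 1.137 CPM, with LEP at 0) and of 5 hepatocyte markers 0 (0.0730 to 0.195 and 0.0333 to 0.175 CPM). No marker passed the threshold.

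No gene of either route differed between PKI and inPKI beyond the spread of the libraries once p-values were adjusted over all 14275 genes tested. All 30 genes passed the filter on low values, with at least 5.39 CPM in every library. In limma 0 of the 30 passed an adjusted p of 0.05, where 0.126% of all genes tested did (18 of 14275), and edgeR and DESeq2 also called 0. The adjusted p of the 30 ran from 0.270 to 0.961. In bulk RNA of this kind, fewer cells that make a transcript and less of it per cell cannot be told apart.

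With no adjustment, 3 of the 30 had a limma p below 0.05, against 13.7% of all genes tested. STARD4 was higher in PKI (7.53% of all genes were higher at that level), and PMVK and EBP were lower (6.16% of all genes). The libraries of the groups did not overlap in 4 genes. STARD4 had every PKI library above every inPKI library (10.9% of all genes), and PMVK, IDI1 and EBP had every PKI library below (8.88% of all genes). These shares are near or below those of all genes tested. With edgeR and with DESeq2 on the reads recovered from the table, ACACA joined STARD4 on the higher side at an unadjusted p below 0.05, and PMVK and EBP were again the 2 on the lower side. Of all genes tested, 15.64% in edgeR and 11.92% in DESeq2 were at that level.

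**Figure D1:**
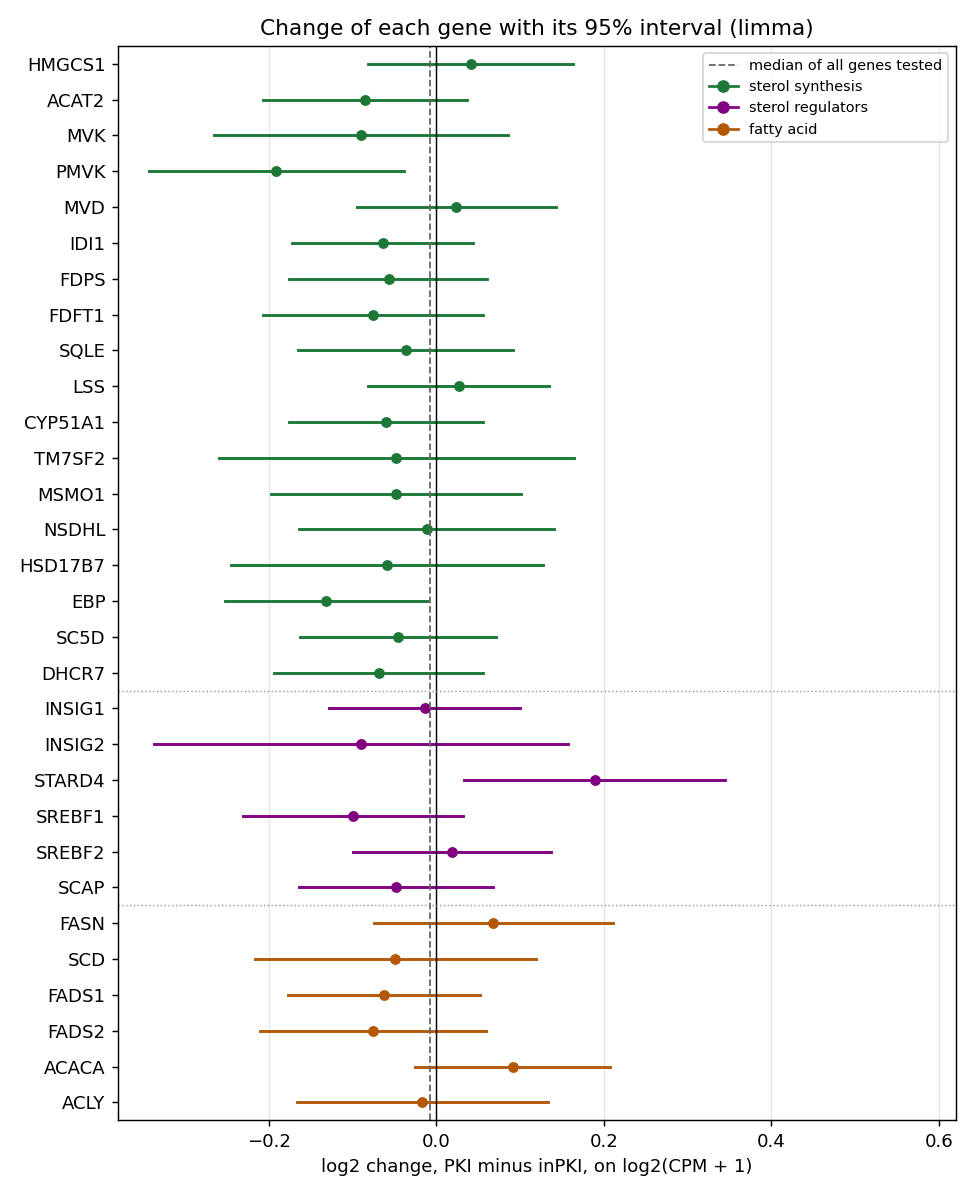
The log2 change (PKI minus inPKI, on log2(CPM + 1), horizontal axis) of each of the 30 genes is drawn as a point with its 95% limma interval, coloured by arm, and the dashed line marks the median of all genes tested (-0.007). Points lie from -0.19 (PMVK) to 0.19 (STARD4), and 27 of the 30 intervals hold 0.

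The precision of the comparison in limma is set by its intervals. The 95% intervals of the 30 log2 changes, on the log2(CPM + 1) scale used throughout, reached no lower than -0.343 and no higher than 0.345, which is 0.788-fold to 1.27-fold. For 24 of the 30 genes the whole interval lay within 0.25 of 0. The widest was that of INSIG2 (-0.337 to 0.157), a gene with 157 to 277 reads per library. By ratio of mean CPM the genes lay between 0.871 (PMVK) and 1.15 (STARD4). The 30 changes had an SD of 0.072, and the changes of all genes tested had an SD of 0.160.

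The first enzymes of the sterol route join acetyl-CoA units and make mevalonate. HMGCS1, the cytosolic HMG-CoA synthase, measured 120.1, 124.5 and 118.8 CPM in inPKI A, B and C and 124.0, 133.4 and 117.0 CPM in PKI A, B and C. PKI B was the highest and PKI C the lowest of its libraries, so the groups overlapped (log2 change 0.04 ± 0.057, SE, adjusted p = 0.779). ACAT2, the cytosolic acetoacetyl-CoA thiolase that supplies HMGCS1, measured 86.1, 83.3 and 85.0 CPM in inPKI and 80.7, 84.7 and 74.4 CPM in PKI, and PKI B lay among the controls. ACAT2 shares exonic bases with genes on the opposite strand: 397 with TCP1, a gene at 360.2 CPM, 1141 with SOD2 and 1458 with SOD2-OT1. Whether the counting used strand is not given in the sources used here.

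PMVK, phosphomevalonate kinase, had the largest decrease among the 30. It measured 23.9, 24.0 and 22.0 CPM in inPKI A, B and C and 20.0, 21.7 and 19.2 CPM in PKI A, B and C. All PKI libraries were below all inPKI libraries, but the highest PKI value (21.7) and the lowest inPKI value (22.0) nearly met. The log2 change was -0.19 ± 0.071 (SE, unadjusted p = 0.0170, adjusted p = 0.270 in limma), on 440 to 659 reads per library. The gene (ENSG00000163344.5) lies on chromosome 1, 154924734 to 154936991 in GRCh38. The kinase before it, MVK, measured 18.6, 20.1 and 19.1 CPM in inPKI and 19.5, 19.0 and 15.8 CPM in PKI, where only PKI C stood below the controls. The decarboxylase after it, MVD, measured 36.4, 37.5 and 37.0 CPM in inPKI and 37.7, 38.2 and 36.9 CPM in PKI, with a log2 change of 0.02 (adjusted p = 0.877). The changes of these 3 consecutive enzymes thus lay on both sides of 0. MVK shares 306 exonic bases with MMAB on the opposite strand (28.5 CPM).

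IDI1, the isomerase that makes the reactive isoprenoid unit, measured 107.0, 110.4 and 105.2 CPM in inPKI and 102.5, 105.2 and 100.7 CPM in PKI. Its groups did not overlap, but inPKI C and PKI B were alike to the first decimal, and its adjusted p was 0.593. FDPS, which joins those units into farnesyl diphosphate, measured 126.8, 137.4 and 130.2 CPM in inPKI and 124.5, 133.1 and 121.4 CPM in PKI. FDFT1, squalene synthase and the first step committed to sterols, measured 130.7, 135.6 and 127.8 CPM in inPKI and 128.2, 132.8 and 113.5 CPM in PKI. In FDPS and FDFT1 PKI B lay inside the range of the controls and PKI C was the lowest library (adjusted p = 0.668 and 0.604).

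SQLE, the squalene epoxidase that carries out a rate-limiting oxidation, measured 191.0, 200.7 and 177.9 CPM in inPKI and 180.7, 196.1 and 178.3 CPM in PKI, and here inPKI C was the lowest. LSS, which closes the sterol rings to give lanosterol, measured 109.5, 108.4 and 107.8 CPM in inPKI and 114.9, 108.6 and 108.5 CPM in PKI. Only PKI A stood above the controls, and the log2 change of LSS was 0.03 ± 0.051 (SE, adjusted p = 0.845). CYP51A1, the lanosterol demethylase, measured 150.9, 148.4 and 144.1 CPM in inPKI and 140.8, 149.4 and 135.2 CPM in PKI, with PKI B among the controls. CYP51A1 shares 2844 exonic bases with AC000120.2 on the same strand.

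EBP, the sterol isomerase that shifts a ring double bond, had the second largest decrease. It measured 66.8, 66.2 and 65.6 CPM in inPKI and 59.7, 64.3 and 57.2 CPM in PKI. The controls lay close together, and each PKI library was below them. The log2 change was -0.13 ± 0.056 (SE, unadjusted p = 0.0340, adjusted p = 0.323 in limma), and the gene (ENSG00000147155.10) lies on chromosome X, 48521158 to 48528716 in GRCh38. DHCR7, the reductase of the last step to cholesterol, measured 129.6, 124.9 and 131.7 CPM in inPKI and 127.9, 127.5 and 113.1 CPM in PKI, and SC5D, the lathosterol desaturase, 67.3, 62.7 and 65.1 CPM in inPKI and 65.1, 63.5 and 60.3 CPM in PKI. In both, PKI C alone lay below the controls.

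Of the remaining post-lanosterol enzymes, MSMO1, a sterol methyl oxidase, measured 33.4, 35.1 and 36.6 CPM in inPKI and 33.0, 37.4 and 31.4 CPM in PKI, and NSDHL, the decarboxylating dehydrogenase that acts after it, 40.0, 36.8 and 35.4 CPM in inPKI and 37.9, 39.9 and 33.6 CPM in PKI. The groups overlapped in both. HSD17B7, a sterol ketoreductase, measured 12.1 ± 0.104 CPM in inPKI (SD, n = 3) and 10.7, 11.15 and 13.0 CPM in PKI A, B and C, and it was the one gene of the 30 in which PKI C was the highest library. TM7SF2, a sterol reductase and the lowest mean of the 30 per kilobase in both groups, measured 5.62, 5.84 and 6.25 CPM in inPKI and 5.39, 5.86 and 5.77 CPM in PKI (log2 change -0.05, 95% interval -0.260 to 0.165). The adjusted p of these 4 genes ran from 0.789 to 0.961.

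Among the sterol regulators, STARD4, a carrier that moves cholesterol between membranes, had the largest increase of the 30 genes. It measured 16.1, 15.8 and 15.4 CPM in inPKI A, B and C and 17.8, 19.3 and 17.3 CPM in PKI A, B and C. Every PKI library was above every inPKI library, and PKI C, the lowest library for most of the genes, was here above the controls. The log2 change was 0.19 ± 0.073 (SE, 95% interval 0.033 to 0.345, unadjusted p = 0.0209, adjusted p = 0.285 in limma), on 372 to 581 reads per library. The gene (ENSG00000164211.12) lies on chromosome 5, 111496033 to 111512590 in GRCh38.

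The genes of the SREBP factors and their escort had no change beyond the spread of the libraries. SREBF2 measured 169.4, 162.6 and 167.5 CPM in inPKI and 176.3, 171.3 and 158.8 CPM in PKI, so that PKI A and B lay above the controls and PKI C below them (log2 change 0.02 ± 0.055, SE, adjusted p = 0.905). SREBF1 measured 65.5, 61.2 and 62.3 CPM in inPKI and 63.6, 58.2 and 54.8 CPM in PKI, and only PKI A lay within the controls (log2 change -0.10 ± 0.062, SE, adjusted p = 0.489). SREBF1 shares 556 exonic bases with RAI1 on the opposite strand (75.9 CPM). SCAP, the escort, measured 96.2, 94.5 and 96.7 CPM in inPKI and 95.9, 95.4 and 86.9 CPM in PKI, where PKI A and B lay within the controls.

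INSIG1, the retention protein that is itself an SREBP target, measured 173.4, 173.6 and 168.3 CPM in inPKI and 168.6, 178.3 and 163.7 CPM in PKI. Its log2 change was -0.01 with a 95% interval of -0.128 to 0.100 (adjusted p = 0.935). INSIG2, its relative, measured 9.01, 9.23 and 9.43 CPM in inPKI and 10.2, 9.02 and 6.87 CPM in PKI, and its PKI libraries spread from above to below the controls. Its coefficient of variation in PKI, 19.6%, was the highest of the 30 genes in either group, against 2.28% in inPKI.

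Promoter sequence was read from RefSeq windows on GRCh38.p14, which held an entry for 26 of the 30 genes; ACAT2, FDFT1, SQLE and FASN had none. In the 250 bases before the start, both strands were searched for letters known from SREBP, its partners and the cAMP-responsive factor CREB. A gene was counted if any of its windows held the motif, and the 26 genes had 36 windows. Shares over all windows are per window, so they are not on the same footing as the shares of genes. The sterol regulatory element TCACNCCAC was in 1 of the 26 genes (3.8%, against 1.15% of 9986 tested genes with a window and 0.88% of all 35116 windows), namely SREBF2. The NF-Y box CCAAT, bound by a partner of SREBP, was in 19 (73.1%, against 42.17% and 32.01%), and the GC box GGGCGG of Sp1 in 25 (96.2%, against 76.44% and 42.64%). The E-box CACGTG was in 3 (11.5%, against 11.51% and 6.34%), namely SC5D, INSIG1 and SCAP. The cAMP response element TGACGTCA was in 1 gene (3.8%, against 3.54% and 1.65%), namely FADS1. Its shorter form TGACG, which also lies within the full element, was in 12 (46.2%, against 36.34% and 21.22%). A match is a description of letters and does not show binding. The search took only these exact letters in 250 bases, so no match does not show that a gene lacks such an element.

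Sequences are shown for SREBF2, as the one window with the sterol element, for STARD4, as the gene with the largest increase, and for FADS1, as the one window with a full cAMP response element. They run 5′ to 3′ on the strand of the gene, with matched motifs in capitals. The SREBF2 stretch is chr22:41832855-41833078 on the plus strand, from -250 to -27 of the RefSeq start. Its capitals are TGACG at -143 to -139, the sterol element at -133 to -125, and an NF-Y box read on the other strand at -106 to -102. It lies in an exon of the antisense gene SREBF2-AS1, which was at 3.02 CPM. The STARD4 stretch is chr5:111512591-111512785 on the minus strand, from -250 to -56, with NF-Y boxes in capitals at -161 to -157 and -130 to -126. The FADS1 site is chr11:61817047-61817076 on the minus strand, from -73 to -44, with the full element in capitals at -62 to -55.
SREBF2: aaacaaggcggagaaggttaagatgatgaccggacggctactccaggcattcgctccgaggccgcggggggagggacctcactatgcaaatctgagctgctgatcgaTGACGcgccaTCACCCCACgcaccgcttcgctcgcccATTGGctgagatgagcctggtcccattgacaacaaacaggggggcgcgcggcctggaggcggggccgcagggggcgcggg
STARD4: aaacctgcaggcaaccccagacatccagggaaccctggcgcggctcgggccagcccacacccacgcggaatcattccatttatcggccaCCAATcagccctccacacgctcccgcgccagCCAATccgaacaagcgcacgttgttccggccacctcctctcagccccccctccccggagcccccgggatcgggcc
FADS1: cgatgcccgccTGACGTCAggaagtcgaat

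On the fatty acid side, ACLY, ACACA and FASN act in turn. ACLY, the ATP citrate lyase that makes cytosolic acetyl-CoA for both routes, measured 725.1, 725.2 and 697.8 CPM in inPKI and 732.8, 739.5 and 653.9 CPM in PKI. PKI A and B lay above the controls and PKI C below them, and the log2 change was -0.02 with a 95% interval of -0.166 to 0.133 (adjusted p = 0.940). ACACA, the acetyl-CoA carboxylase that commits carbon to fatty acids, measured 165.3, 168.8 and 158.1 CPM in inPKI and 177.1, 181.0 and 166.5 CPM in PKI. PKI A and B lay above the controls and PKI C among them. The log2 change of ACACA was 0.09 ± 0.055 (SE, 95% interval -0.026 to 0.208, adjusted p = 0.475).

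FASN, the multi-domain synthase that builds palmitate, measured 746.5, 707.6 and 678.5 CPM in inPKI and 750.2, 755.3 and 729.0 CPM in PKI. It was one of 4 genes of the 30 that varied less in PKI (coefficient of variation 1.88%) than in inPKI (4.80%), and inPKI A lay within the PKI range. Its log2 change was 0.07 ± 0.067 (SE, adjusted p = 0.674), and the gene lies on chromosome 17, 82078333 to 82098332 in GRCh38.

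The desaturases had log2 changes below 0. SCD, which places the first double bond and was the highest of the 30 per kilobase, measured 1203.1, 1224.6 and 1189.3 CPM in inPKI and 1210.6, 1215.6 and 1076.0 CPM in PKI. PKI A and B lay within the controls and PKI C far below (log2 change -0.05, 95% interval -0.217 to 0.119, adjusted p = 0.816). FADS1, the delta-5 desaturase of polyunsaturated fatty acids, measured 143.1, 145.7 and 146.7 CPM in inPKI and 145.5, 140.1 and 131.7 CPM in PKI. FADS2, the delta-6 desaturase, measured 43.4, 44.8 and 46.2 CPM in inPKI and 44.5, 44.1 and 38.9 CPM in PKI, and in both PKI A lay within the controls. FADS1 and FADS2 are neighbours on chromosome 11 that share 490 exonic bases on opposite strands, so their reads are not fully separate. FADS2 also shares 49 exonic bases with FEN1 on the same strand (156.9 CPM). The adjusted p of FADS1 and FADS2 was 0.625 and 0.615.

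**Figure D2:**
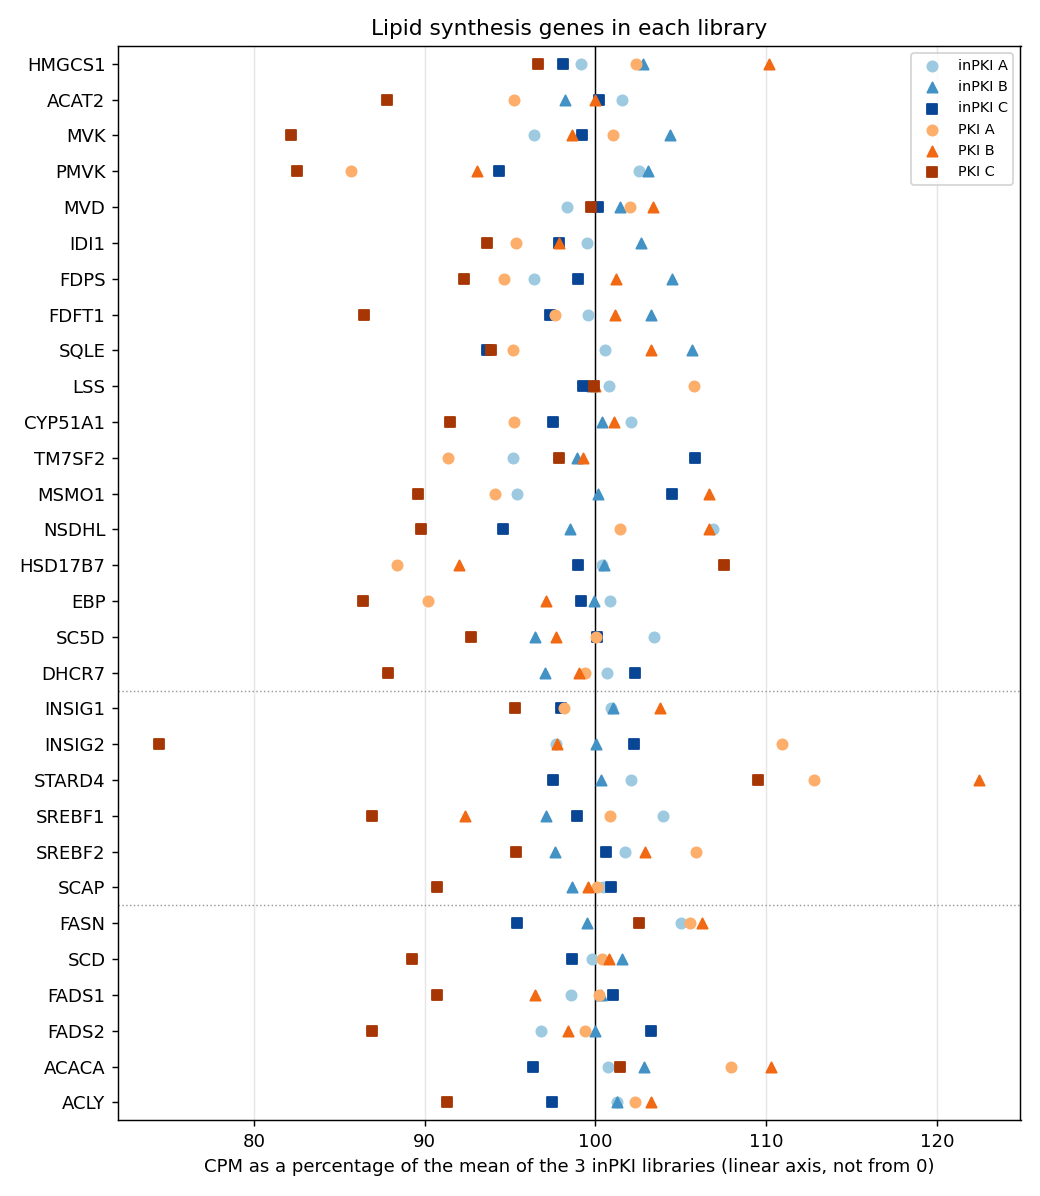
Each point is the CPM of 1 gene in 1 library as a percentage of the mean of the 3 inPKI libraries (linear axis that does not start at 0), with genes grouped by arm, inPKI in blue, PKI in orange and the letters by shape. PKI C lies lowest in 22 of the 30 genes, while STARD4 has all its PKI points above its inPKI points.

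Levels of different genes were set in order per length, as CPM per kilobase of the longest annotated transcript. That transcript need not be the form expressed, and the SDs hold only the spread of the libraries, so the order of genes is approximate. The fatty acid genes spanned the widest range. SCD stood first at 224.9 ± 3.31 CPM per kilobase in inPKI and 217.7 ± 14.8 in PKI (SD, n = 3 each), followed by ACLY at 165.0 ± 3.64 and 163.3 ± 10.97 and FASN at 83.0 ± 3.98 and 87.0 ± 1.63. These 3 genes were separated from each other and from all others beyond the SD, and, by plain CPM, which is not per length, they held 52.8% to 53.8% of the sum over the 30 genes in each library. FADS2, at 8.83 CPM per kilobase in inPKI, was near the low end of the list.

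Among the sterol enzymes FDPS (65.2 ± 2.68 CPM per kilobase in inPKI, SD, n = 3) and SQLE (64.1 ± 3.85) led and did not differ beyond their SD. FDFT1 (49.4 ± 1.48) and DHCR7 (48.3 ± 1.29) were likewise within their SD of each other, with CYP51A1 (46.0 ± 1.07) next. At the low end were MVK (4.69), HSD17B7 (3.93) and TM7SF2 (2.82). SREBF2 was 2.16 times SREBF1 per kilobase in inPKI and 2.34 times in PKI. INSIG1 was 19.7 times INSIG2 in inPKI and 20.7 times in PKI.

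**Figure D3:**
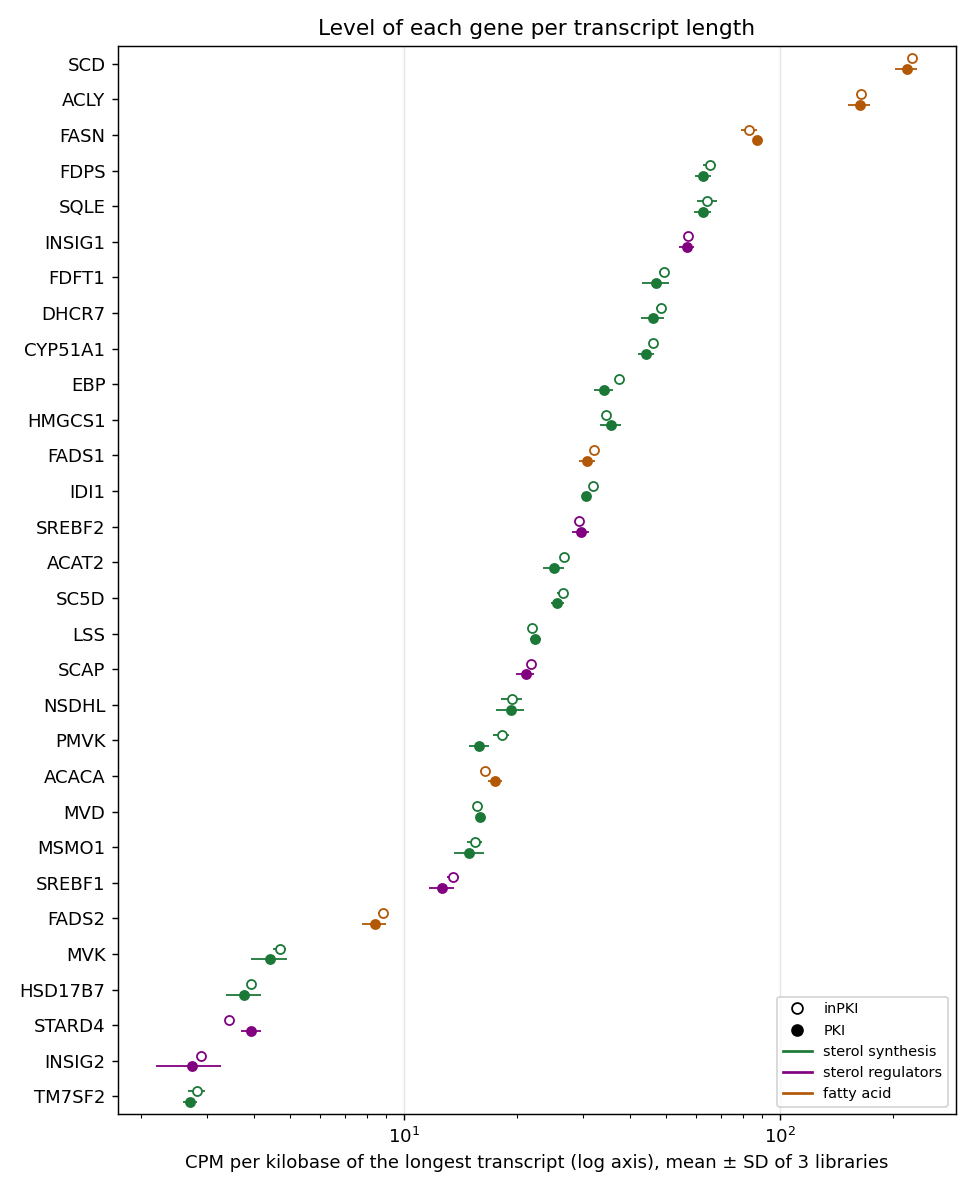
The mean CPM per kilobase of the longest transcript (log axis) is drawn for each of the 30 genes in inPKI and in PKI, with bars for the SD over 3 libraries, in order of the inPKI level. SCD, ACLY and FASN stand apart at the top and TM7SF2 and INSIG2 lie at the bottom in both groups.

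The arms were then set side by side. Of the 30 log2 changes 23 were below 0 (52.6% of all genes tested were), and the median was -0.049, against -0.007 over all genes tested. The 18 sterol synthesis genes had a median of -0.058, with 15 below 0. HMGCS1, MVD and LSS were the 3 above 0. The 6 sterol regulators had a median of -0.031, with STARD4 and SREBF2 above 0, and the 6 fatty acid genes a median of -0.033, with FASN and ACACA above 0. The pooled SD of the arm medians over libraries was 0.043 for sterol synthesis, 0.058 for the regulators and 0.067 for the fatty acid genes. The arms were measured in the same libraries, so these SDs hold shifts common to the arms. They do not measure the spread of a difference between arms, and that difference was not tested.

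The library PKI C was the lowest of the 6 libraries in 22 of the 30 genes, where 39.4% of all genes tested had it lowest, and it also had the fewest reads and the lowest sum of CPM (754299, against 773801 to 785007). The lowest library was inPKI C in SQLE, LSS, STARD4, FASN and ACACA, PKI A in TM7SF2 and HSD17B7, and inPKI A in MVD. Relative to the inPKI mean, the median over the 18 sterol synthesis genes was -0.069, 0.000 and -0.120 in PKI A, B and C, and 0.008, 0.007 and -0.012 in inPKI A, B and C. For the 6 fatty acid genes it was 0.020, 0.029 and -0.135 in PKI and 0.004, 0.012 and -0.028 in inPKI, and for the 6 regulators 0.048, 0.018 and -0.104 in PKI and 0.019, -0.009 and -0.003 in inPKI. Over all genes tested PKI C was at -0.050.

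Without PKI C the median of the 30 genes was -0.006 (17 below 0, where 43.92% of all genes tested were), against 0.013 over all genes tested. The sterol synthesis median was then -0.014, that of the regulators 0.034 and that of the fatty acid genes 0.025, so for the last pair the side of 0 turned. In PKI A the sterol synthesis genes were low and the other arms were not, and in PKI B no arm was low. Without PKI C limma still called 0 of the 30, and at an unadjusted p below 0.05 it gave ACACA and STARD4 higher and PMVK lower. Of all genes tested without PKI C, 11.92% were at that level.

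**Figure D4:**
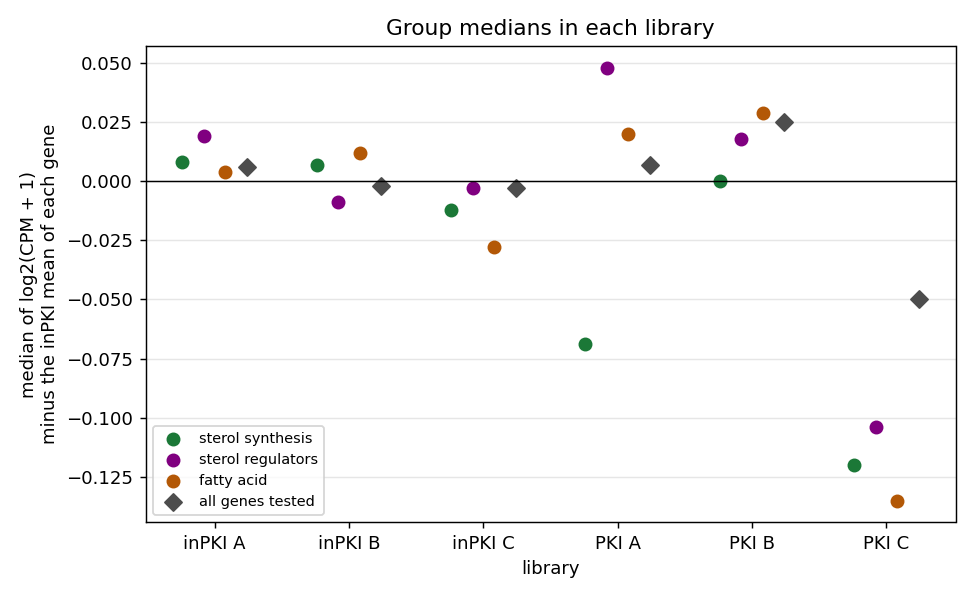
The median log2 level relative to the inPKI mean is drawn for each library and each arm, beside the median of all genes tested. PKI C is lowest in all 3 arms (-0.120, -0.104 and -0.135), PKI A is low in sterol synthesis alone (-0.069), and PKI B is at or above 0 in each.

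Summed over genes, sterol synthesis RNA came to 1452.4 ± 23.4 CPM in inPKI and 1406.9 ± 68.4 CPM in PKI (mean ± SD of 3 libraries). The fatty acid genes summed to 2986.6 ± 60.8 CPM and 2977.5 ± 157.3 CPM, and the regulators to 522.1 ± 6.7 CPM and 517.4 ± 25.2 CPM. Each difference was within the SD of the PKI group. The PKI libraries also varied more gene by gene. The coefficient of variation was larger in PKI than in inPKI in 26 of the 30 genes, with medians of 5.92% and 2.47%, and it was larger in PKI in 65.7% of all genes tested.

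The changes ran with transcript length. Across the 14242 tested genes with a length the log2 change and the length of the longest transcript had a Spearman correlation of 0.450, and across the 30 genes one of 0.316; genes share their libraries and are not independent replicates. PMVK (1280 bases) and EBP (1775 bases), the largest decreases, are the shortest of the 30, and ACACA (9961 bases) and FASN (8565 bases), on the higher side, are the longest. With the length trend of all genes removed from each library, the log2 change was -0.018 for ACACA and for FASN, -0.095 for PMVK (adjusted p = 0.605) and -0.062 for EBP (adjusted p = 0.628). STARD4 (4606 bases) was at 0.178 (adjusted p = 0.396) and was then the only gene of the 30 at an unadjusted p below 0.05 (10.38% of all genes tested). The trend runs with the groups, and whether it is technical was not tested.

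**Figure D5:**
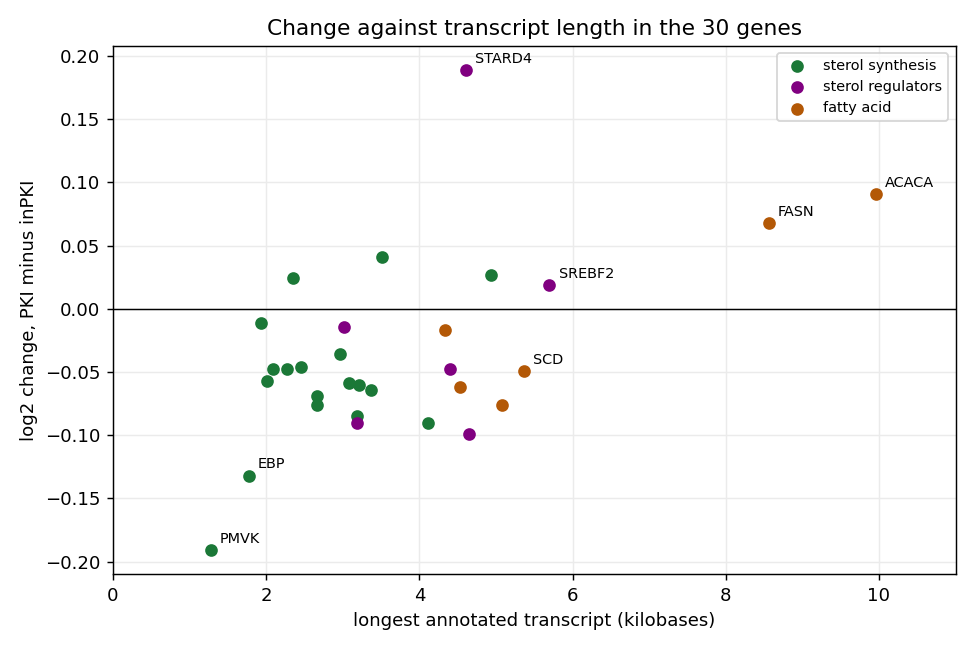
The log2 change of each of the 30 genes (vertical axis) is plotted against the length of its longest annotated transcript in kilobases (horizontal axis), coloured by arm. PMVK and EBP lie at the short, low end, and FASN and ACACA at the long end above 0, while STARD4 lies highest at an intermediate length.

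In the authors' deposited table, whose input was not the 6 deposited columns alone, the log2 fold changes of the 30 genes (turned to PKI over inPKI) ran from -0.188 for PMVK to 0.213 for STARD4. Of these genes 22 in the authors' deposited table were below 0 and 8 above, and the smallest p was 0.0944 for PMVK. The SE there ran from 0.062 for SREBF2 to 0.279 for FADS2, against 0.055 and 0.063 for these genes in limma, so precision depends on the model and its input. The adjusted p of all 30 in the authors' deposited table was 0.9999, where 14 genes in all had an adjusted p below 0.05.

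Other genes around the 2 routes were followed as 4 lists, and limma, edgeR and DESeq2 each called 0 in these 4. The counts below are to be read against all genes tested, of which 52.6% were below 0, 7.53% higher and 6.16% lower at an unadjusted p below 0.05. Of 10 genes that process or turn over SREBP and its partners, all 10 were below 0 (median -0.031), though PAQR3 and ERLIN2 were at 0.00 when rounded to 2 decimals. Of the 10, 1 was lower at an unadjusted p below 0.05. This was RNF139, an endoplasmic reticulum ubiquitin ligase, with 28.1, 26.7 and 26.1 CPM in inPKI and 24.2, 25.9 and 21.8 CPM in PKI (log2 change -0.17 ± 0.072, SE, adjusted p = 0.330). Of 10 genes on the isoprenoid branches, 5 were below 0 (median -0.020), and COQ2, which attaches the isoprenoid tail of coenzyme Q, was the 1 lower at an unadjusted p below 0.05 (log2 change -0.20 ± 0.072, SE, adjusted p = 0.253 in limma). In DESeq2 the adjusted p of COQ2 was NA, so DESeq2 could not call it.

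Of 11 genes of sterol transport, storage and the oxysterol receptors, 7 were below 0 (median -0.008), with 2 higher (7.53% of all genes tested) and 1 lower (6.16%) at an unadjusted p below 0.05. NPC2, the lysosomal carrier that hands cholesterol to NPC1, measured 29.1, 27.8 and 27.0 CPM in inPKI and 26.4, 23.4 and 20.3 CPM in PKI (log2 change -0.26 ± 0.083, SE, adjusted p = 0.212). The higher pair, named after their values were seen, were NPC1, the lysosomal membrane transporter itself, and OSBPL2, an oxysterol-binding protein. NPC1 measured 46.9, 48.8 and 47.6 CPM in inPKI and 54.5, 54.1 and 51.1 CPM in PKI (log2 change 0.15 ± 0.055, SE, adjusted p = 0.253), and each of its PKI libraries lay above each control. NPC1 and NPC2, which act together, thus lay on opposite sides without either passing the threshold. Of 19 genes of fatty acid elongation and activation 18 were tested, 11 were below 0 (median -0.016) and 2 were higher at an unadjusted p below 0.05 (7.53% of all genes tested), the acyl-CoA synthetase gene ACSL4 (adjusted p = 0.335) and the elongase gene ELOVL7, also named after its values were seen (adjusted p = 0.336).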

How the data were processed

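Named in the submitters' processing notes are hg19, RSEM 1.3.0, STAR 2.5.2b, cutadapt 1.14 and DESeq2 1.20.0. The authors deposited CPM per gene. Per the file headers, the authors' deposited table gives a mean signal, a log2 fold change, a score (Wald statistic) and p-values. In all 30960 genes its 2 fold columns have opposite signs, so values were turned to PKI over inPKI, and 2069 genes at 0 in all 6 libraries have a signal above 0 there, so its input was not these columns alone.

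The scale was log2(CPM + 1), on which changes of low genes are understated, for genes with at least 1 CPM in at least 3 libraries. The model was limma 3.58.1 (mean-variance trend, 2-sided, Benjamini-Hochberg over all genes tested, threshold 0.05). It was also run on simulated data, which held no length trend, so that run says nothing on such a trend here. Every CPM was a whole multiple of 1 read (100%, tolerance 0.01 reads), so edgeR 4.0.16 and DESeq2 1.42.0 were run on recovered reads, which may be rounded RSEM estimates. An exact permutation test of 3 against 3 cannot go below 0.1. Positions and lengths are from GENCODE 29 (30795 identifiers matched) and not from the authors' alignment. The genes and lists were chosen with earlier results of these data known. All 30 genes and PKIA are named, and of each other list the gene with the smallest p; NPC1, OSBPL2, ELOVL7, CPT2 and ACAA2 were added after their values were seen.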

Additional observations from a re-analysis of the deposited data

How the results depend on the processing

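In all 17 alternatives 0 of the 30 genes passed. Of 510 values of single genes 492 kept their direction. The count of all genes called, 18 as reported, was 4 with no filter on low values, 4 without a trend, 11 with equal column sums (10 higher), 11 by edgeR, 10 with the length trend removed and 216 by DESeq2, whose adjusted p is NA for 4 of the 30 (INSIG2, HSD17B7, TM7SF2 and STARD4). Leaving out 1 library gave 9 to 121: for inPKI A 11, for inPKI B 9, for PKI A 38, for PKI B 121 and for PKI C 46. The sterol synthesis median ran from -0.088 to -0.014 and the regulator median from -0.058 to 0.034, the upper ends without PKI C.

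With the length trend removed 7 genes changed sign: ACACA and FASN (-0.018 each), SREBF2 (-0.014), FDPS (0.00021), TM7SF2 (0.007), INSIG1 (0.008) and NSDHL (0.050). Leaving out 1 library in turn, the range crossed 0 for ACLY (-0.048 to 0.040), INSIG1 (-0.048 to 0.014), INSIG2 (-0.203 to 0.053), MSMO1 (-0.118 to 0.004), NSDHL (-0.063 to 0.057) and SCD (-0.079 to 0.009), each with the upper end without PKI C, and NSDHL was also above 0 without inPKI A (0.037). It crossed 0 for HMGCS1 (-0.008 without PKI B, up to 0.086), LSS (-0.00029 without PKI A, up to 0.041), SREBF2 (-0.013 without PKI A, up to 0.062) and SQLE (0.004 without inPKI B, down to -0.082). Apart from these 2 kinds of alternative no sign changed, and the cause was not tested.

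STARD4 was not at an unadjusted p below 0.05 without inPKI C or PKI B, PMVK without inPKI A or B, and EBP without inPKI A, B or C, PKI A or C, or a trend in limma. With the length trend removed PMVK and EBP were not either.

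The letters A, B and C are shared by both groups. Deviations of same-letter libraries correlated at 0.017, 0.014 and 0.028 over 14275 genes, under 0.1, though each library correlated best with its own letter. With the letter as a replicate block 124 genes were called, and 0 of the 30, with PMVK, EBP and STARD4 again at an unadjusted p below 0.05 (16.08% of all genes tested).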

Other observations

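Fatty acid oxidation, the mitochondrial route that breaks fatty acids down, was represented by 17 genes, all tested. In limma and edgeR 0 passed an adjusted p of 0.05. DESeq2 called 1 of the 17, where it called 216 of all 14275 genes tested. With no adjustment, 3 of the 17 had a limma p below 0.05, all lower in PKI, where 6.16% of all genes tested were lower and 13.7% differed either way. They were ECHS1, CPT2 and ACAA2, the last pair named after their values were seen. ECHS1, the short-chain enoyl-CoA hydratase, measured 110.0, 114.1 and 109.1 CPM in inPKI A, B and C and 101.3, 103.3 and 86.9 CPM in PKI A, B and C. Each PKI library lay below each control, with PKI C lowest. Its log2 change was -0.20 ± 0.064 (SE, adjusted p = 0.221 in limma), and it was the gene DESeq2 called (adjusted p = 0.0488). CPT2, the inner carnitine palmitoyltransferase, measured 29.4, 31.5 and 30.1 CPM in inPKI and 26.8, 27.9 and 23.7 CPM in PKI (adjusted p = 0.223). ACAA2, a mitochondrial thiolase, measured 39.9, 40.9 and 39.4 CPM in inPKI and 37.7, 37.8 and 33.6 CPM in PKI (adjusted p = 0.344). Of the 17 genes 12 were below 0 (52.6% of all genes tested), and the median log2 change was -0.078, against -0.049 for the 30 synthesis genes and -0.007 for all genes tested. The part of PKI C in these values was not tested.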
